A study of Mus musculus with 5 samples.

Results

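Isolated Gata6 peaks were those autosomal regions of Gata6 binding whose midpoint lay more than 100 kb from the midpoint of any other peak on the same chromosome. They numbered 1841 of the 7680 autosomal peaks, or 24.0%, in a list of 7737 peaks. The remaining 5839 autosomal peaks are called the other peaks. The list came from chromatin immunoprecipitation followed by sequencing (ChIP-seq), in which DNA crosslinked to a protein is pulled down with an antibody and sequenced. The antibody was directed against Gata6, and the tissue was whole pancreas of wild-type C57BL/6 mice, 2 libraries at 5 weeks of age and 2 at 14 weeks, with 1 library of pooled input DNA from the same tissue. The result analysed was 1 list of positions on mouse genome build mm9, treated here as a pooled result of the 4 Gata6 libraries. It names no library and carries no value per animal, no peak height and no read depth, and neither a spread between replicates nor a comparison of ages could be computed.

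Gata6 is a zinc-finger transcription factor of the GATA family, which recognises short DNA motifs built around the letters that give the family its name. It takes part in pancreas development and in keeping acinar cells, the enzyme-secreting cells that make up most of the organ, in their differentiated state. Transcription factors often bind several neighbouring elements of 1 regulatory region, so a peak with no other near it is a site of the factor without such company in the list. Whole pancreas mixes acinar, duct, islet, vascular and stromal cells, and positions alone do not show in which of them a site was bound.

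The rule used distance and nothing else, so distances describe how the peaks were chosen. The nearest other peak lay at a median of 211 kb from an isolated peak, with quartiles of 140.3 and 367 kb, while the nearest neighbour of the other peaks lay at a median of 17.1 kb. On the far side the next peak was at a median of 618 kb, and for 615 isolated peaks (33.4%) it was more than 1 Mb away. Isolation beyond 200 kb was met by 973 peaks, beyond 500 kb by 324, beyond 1 Mb by 119 and beyond 2 Mb by 26. The 2 peaks just inside it were a facing pair on chromosome 11 in band qE1, at 107726333 to 107727380 (1048 bp) and 107826659 to 107827090 (432 bp), with midpoints 100.02 kb apart. The 2 just outside, also a pair on chromosome 11 but in band qB1.3, lay at 59859587 to 59860270 (684 bp) and 59959492 to 59960287 (796 bp), with midpoints 99.96 kb apart.

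The 5 most distant of these autosomal members lay inside very long empty stretches and were 241 to 918 bp wide. On chromosome 7, the 500 bp peak at 64330244 to 64330743 in band qC had its nearest neighbours 7.65 Mb to the left and 6.71 Mb to the right. On chromosome 1, the 918 bp peak at 113760585 to 113761502 in band qE2.2 was 5.27 Mb from the nearest other peak. On chromosome 16, one of 496 bp at 70314511 to 70315006 in band qC2 stood 4.75 Mb from its nearest neighbour, and on chromosome 12 one of 908 bp at 66174488 to 66175395 in band qC1 stood 4.30 Mb away. The fifth, on chromosome 14 at 94283787 to 94284027 in band qE2.1, was only 241 bp wide and 3.66 Mb from any other. Those of 918 and 908 bp lay above the upper quartile of all isolated peaks (885 bp), yet none of these 5 approached the widest members in size.

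Isolated peaks were narrower than the other peaks in their median. Width was not used by the rule. Isolated peaks had a median width of 653 bp (95% interval of the median from order statistics 636 to 668 bp, n = 1841), quartiles of 475 and 885 bp and extremes of 195 and 6038 bp. The other peaks had a median of 755 bp (744 to 767 bp, n = 5839) and quartiles of 556 and 1027 bp. The difference between medians was -102 bp, isolated minus other, and the difference between means was -117.5 bp. The 2 distributions overlapped over nearly their whole range, and the intervals treat peaks as independent and cover counting error only. Because peaks of 1 list are not replicates of a condition, no test of this difference was made.

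The narrow end and the wide end of the size range both shifted. Peaks under 400 bp made up 14.4% of the isolated ones (266 peaks, exact 95% binomial interval 12.9 to 16.1%) and 7.95% of the others (464 peaks, 7.27 to 8.67%). Peaks of 1 kb or more made up 18.4% of the isolated ones (339 peaks, 16.7 to 20.3%) and 26.9% of the others (1568 peaks, 25.7 to 28.0%). At 2 kb or more there were 10 isolated peaks (0.54% of them) and 118 others (2.02%). Read the other way, the share of autosomal peaks that were isolated was 36.2% among the narrowest 768 (190 to 404 bp) and 16.02% among the widest 768 (1324 bp or more).

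Among the isolated peaks themselves, width was lower at greater distance. The median was 692 bp for the 868 peaks whose nearest neighbour was 100 to 200 kb away and 648 bp for the 649 at 200 to 500 kb. It was 585 bp for the 205 peaks at 500 kb to 1 Mb and 523 bp for the 119 beyond 1 Mb. Peaks under 400 bp made up 10.7% of the first of these classes and 26.1% of the last. Among the other peaks the median was 850 bp at 2 to 5 kb, 779.5 bp at 5 to 10 kb, 780 bp at 10 to 20 kb and 718 bp at 50 to 100 kb. Over all other peaks, Spearman's rho of width with distance was only -0.06 (n = 5839, description only). The isolated classes thus lie on a downward slope that was weak and uneven at shorter distances. The 251 peaks with another midpoint within 1 kb had a median of 607 bp and a maximum of 1318 bp. Regions that do not overlap cannot both exceed 1 kb in width when their midpoints are that close. The low widths of this class thus follow in part from its spacing and say nothing about the slope. The 467 peaks at 1 to 2 kb had a median of 846 bp. Over the isolated peaks, Spearman's rho of width with distance was -0.16 (n = 1841 peaks of 1 list, a weak relation given as a description).

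**Figure D1:**
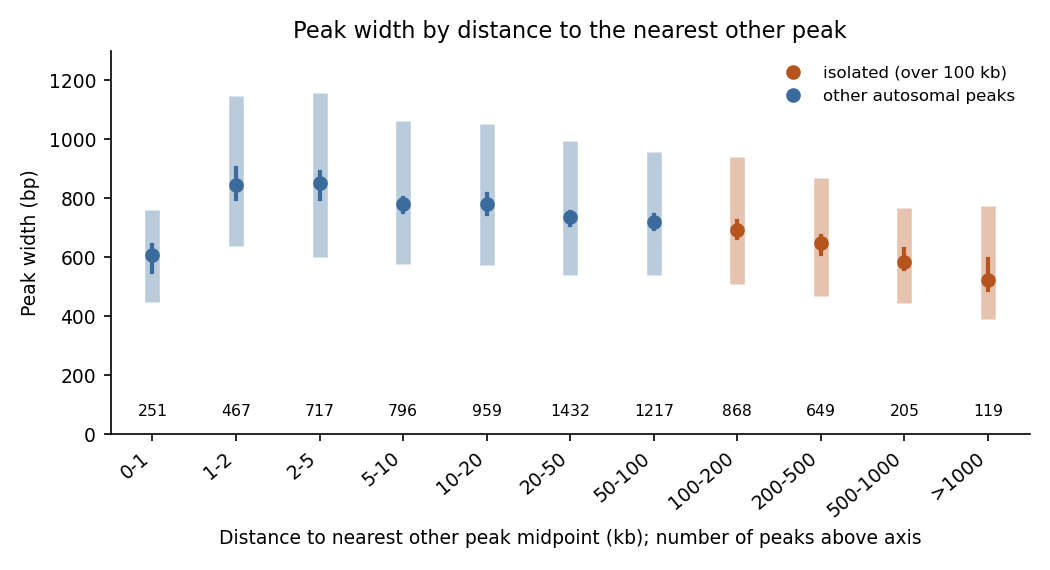
Peak width in bp (vertical axis) for autosomal peaks grouped by distance to the nearest other midpoint in kb (horizontal axis). Dots are medians, thin bars their 95% order-statistic intervals, pale bars the quartiles, and numbers above the axis are peaks per class. The median falls from 850 bp at 2 to 5 kb to 523 bp beyond 1 Mb.

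The wide peak on chromosome 17 went against this slope. It spanned 6038 bp at 39979838 to 39985875 in the light band qB1 and was the widest isolated peak and the second widest of all autosomal peaks. Its neighbours lay 2.90 Mb to the left and 3.04 Mb to the right. Its width was 9.25 times the median of the isolated peaks and 1.87 times that of the next widest. Among the 26 isolated peaks more than 2 Mb from any other, the median width was 517 bp and the second widest measured 1140 bp, and among the 119 beyond 1 Mb the second widest measured 1701 bp. It stood on line 39 of the list. The RefSeq gene table at hand describes build GRCm38.p6. On chromosome 17 it lists a pseudogene whose name refers to 18S ribosomal RNA, Rn18s-rs5, between Esp15 and AY036118. Positions were not carried over between builds, so this entry was not placed relative to the peak and says nothing about its sequence. Whether the peak lies on ribosomal repeat sequence was not tested.

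The other 9 of the 10 widest isolated peaks were at most 3226 bp wide and had their nearest neighbour 103.8 to 863 kb away. That of 3226 bp, at 193006162 to 193009387 on chromosome 1 (qH6), was 144.5 kb from its neighbour. Next came one of 2787 bp, again in band qB1 of chromosome 17, at 34255349 to 34258135. Peaks of 2517, 2514 and 2499 bp followed on chromosome 2 at 92211088 to 92213604 (qE1), on chromosome 11 at 106648485 to 106650998 (qE1) and on chromosome 3 at 61166837 to 61169335 (qE1). The last of these was the only member besides the wide chromosome 17 peak that was 2 kb or wider and more than 500 kb from any other, at 863 kb. The remaining 4 were on chromosome 10 at 17441603 to 17444077 (2475 bp), chromosome 14 at 63378417 to 63380632 (2216 bp), chromosome 1 at 132612632 to 132614710 (2079 bp) and chromosome 3 at 115709506 to 115711573 (2068 bp). Of the 10 widest, 7 had a neighbour within 200 kb, as did 868 of all 1841 isolated peaks. The first 3868 lines of the list held 7 of the 10 and 47.1% of all isolated peaks, so with 10 peaks neither count stands clear of the whole group.

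**Figure D2:**
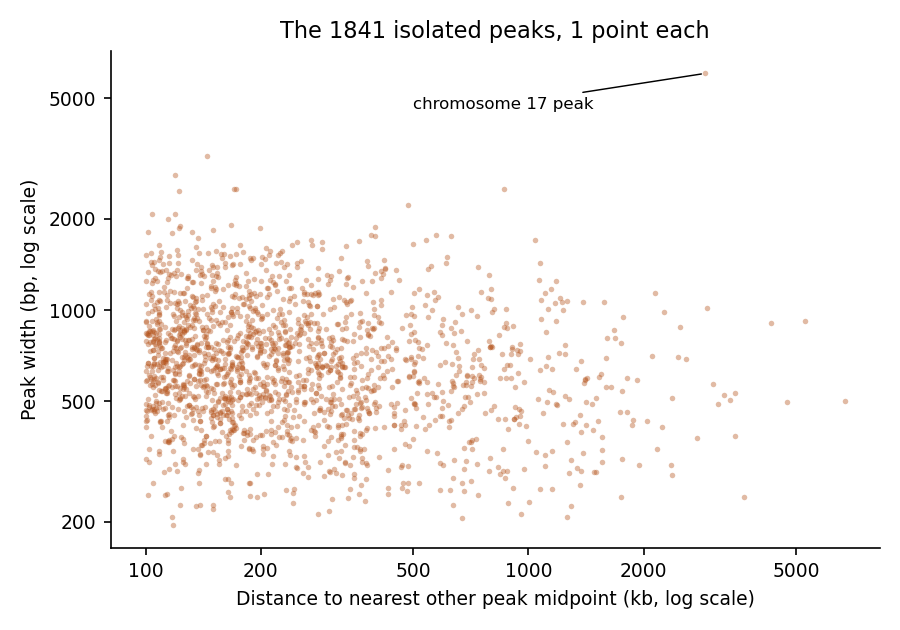
Width in bp against distance to the nearest other midpoint in kb for the isolated peaks, 1 point each, on log axes. The chromosome 17 peak of 6038 bp lies alone at the upper right, and the other peaks beyond 1 Mb are at most 1701 bp wide.

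The 3 narrowest members differed widely in distance. On chromosome 7, the 195 bp peak at 56676942 to 56677136 in band qB4 had a neighbour 117.9 kb to the left and none for 7.65 Mb to the right, where the most distant autosomal peak, described above, came next. On chromosome 16, the 206 bp peak at 76438396 to 76438601 in band qC3.1 was 671 kb from the nearest other. On chromosome 4, the 207 bp peak at 5652511 to 5652717 in band qA1 was 1.27 Mb from the nearest other.

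Isolated peaks were spread more evenly over the chromosomes than the other peaks. The autosomes together carried 0.745 isolated peaks per Mb, from 0.615 on chromosome 8 (81 peaks) to 0.919 on chromosome 11 (112 peaks), a 1.495-fold range. For the other peaks the lowest density was 1.502 per Mb (chromosome 14) and the highest 4.41 (chromosome 11), a 2.93-fold range. The rule itself limits how dense isolated peaks can be and removes more peaks where peaks are dense, so these ranges are descriptions. The share of a chromosome's peaks that were isolated therefore ran against its density. It was highest on chromosome 3 at 32.1% (120 of 374), chromosome 16 at 31.4% (75 of 239) and chromosome 14 at 30.9% (84 of 272). It was lowest on chromosome 11 at 17.3% (112 of 649) and chromosome 17 at 18.7% (64 of 343). Binomial intervals of the 3 highest overlapped each other, as did those of the 2 lowest.

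Isolated peaks had the lower median width on 18 of the 19 autosomes. The largest gap was on chromosome 8, where isolated peaks had a median of 653 bp and the others 831 bp. Chromosome 4 followed with 651 and 791 bp, and chromosome 6 with 587.5 and 713.5 bp. The smallest gap among the 18 was on chromosome 10, with 695.5 and 719 bp. Chromosome 17 was the exception, with 792 bp for its isolated peaks and 788 bp for the others. Without its 6038 bp peak the isolated median of chromosome 17 was 767 bp and the difference -21 bp. Leaving out the widest peak can only lower that median, so the sign on this chromosome rests on 1 peak and supports neither direction.

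**Figure D3:**
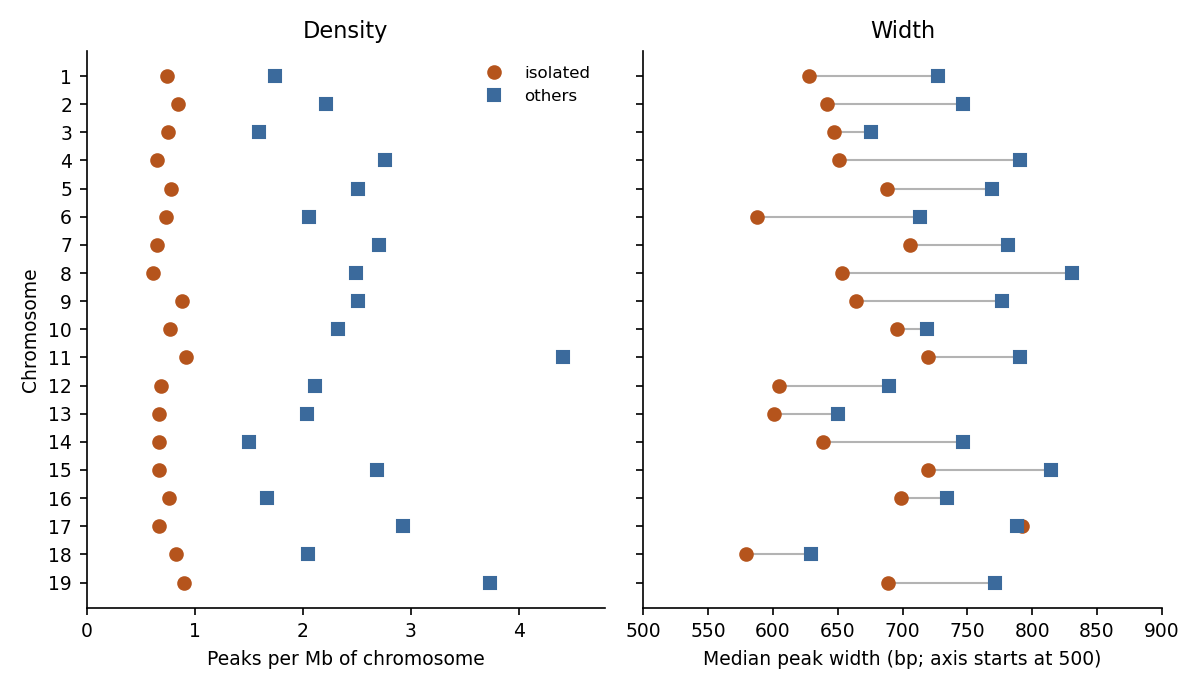
Left, peaks per Mb on each autosome, and right, median width in bp, for isolated peaks (circles) and other peaks (squares). Isolated density stays between 0.615 and 0.919 per Mb, and the isolated median is the lower one on 18 of 19 chromosomes.

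Cytogenetic bands, the stained segments seen on condensed chromosomes, were compared next. The darkest class (gpos100) is in general poor in genes and late in replication. It held 448 isolated peaks, 24.3% of them (95% interval 22.4 to 26.4%), and 19.5% of the others (18.5 to 20.6%), while it takes 31.2% of the autosomal length. Isolated peaks were thus less dense there than in light bands, at 0.580 against 0.842 per Mb. The contrast was smaller than for the other peaks, at 1.48 against 2.79 per Mb. Here too the rule removes more peaks where peaks are dense, so these contrasts are descriptions. Light bands held 46.6% of the isolated peaks (44.3 to 48.9%) and 48.7% of the others (47.4 to 49.9%). The share in the darkest class grew with distance, from 20.2% at 100 to 200 kb and 23.9% at 200 to 500 kb to 29.8% at 500 kb to 1 Mb. It reached 47.9% beyond 1 Mb (57 of 119 peaks, 38.7 to 57.2%). At 100 to 200 kb it was close to the 19.6% of peaks with a neighbour at 10 to 100 kb. Since peaks are sparse in these bands, long distances and dark bands go together, and the part of each was not tested. In the 4 classes with more than 1 band the isolated median was lower than that of the other peaks, with 672.5 against 758 bp in light bands and 593.5 against 712 bp in the darkest. When the first 3868 lines were taken alone, isolation was defined anew without the later lines, giving 1566 isolated peaks. Of these 22.0% lay in the darkest bands, against 21.2% of the other peaks in those lines. The difference was smaller there, but between sets with other members than above.

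Most isolated peaks stood next to another isolated peak, which the rule itself favours, since a long gap is shared by the peaks at both of its ends. Only 357 of them (19.4%) had a peak that was not isolated, or the end of the chromosome's peaks, on both sides. The other 1484 (80.6%) stood in rows of 2 or more consecutive isolated peaks, and 479 (26.0%) in the 73 rows of 5 or more. The longest rows held 12 peaks. One ran over 17.2 Mb of chromosome 5 from 3198155 to 20400837 (bands qA1 to qA3), with widths of 302 to 836 bp, so none of its peaks reached 1 kb. The other ran over 8.71 Mb of chromosome 4 from 82337523 to 91043386 (qC3 to qC5), with widths of 304 to 1431 bp. A row of 11 on chromosome 3 was much denser, over 3.71 Mb from 36723553 to 40430831 in band qB. For 1014 of the 1841 isolated peaks the nearest neighbour was itself isolated. Of 566 gaps over 1 Mb between neighbouring peaks, 234 had an isolated peak at both ends, 263 at 1 end and 69 at neither. A peak beside such a gap already meets the rule on that side, so these counts follow in part from the rule.

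Line position gave a second property that the rule did not use. The list has no score, and the sources used here do not state what orders its lines. Isolated peaks stood slightly later, at a median line of 4174 against 3794 for the other peaks, and 868 of them (47.1%, 95% interval 44.8 to 49.5%) were in the first 3868 lines, against 50.9% of the others (49.6 to 52.2%). With the list cut into 10 bins of 768 autosomal peaks, the isolated share was 19.9% in the first bin (153 peaks, 17.2 to 22.9%) and 29.9% in the last (230 peaks, 26.7 to 33.3%). The order between them was uneven, with 25.3% in bin 2, 25.7% in bin 5 and 20.4% in bin 6. Both kinds of peak were narrower late in the list. The isolated median was 753 bp in the first bin and 553 bp in the last, and that of the others 834 and 639 bp. In all 10 bins the isolated median was the lower one, with the difference between -36 bp in bin 2 and -144 bp in bin 7. Distance to the nearest peak was nearly unrelated to line position within the isolated peaks (Spearman's rho = 0.03, n = 1841, description only), while width was weakly related to it (rho = -0.24).

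**Figure D4:**
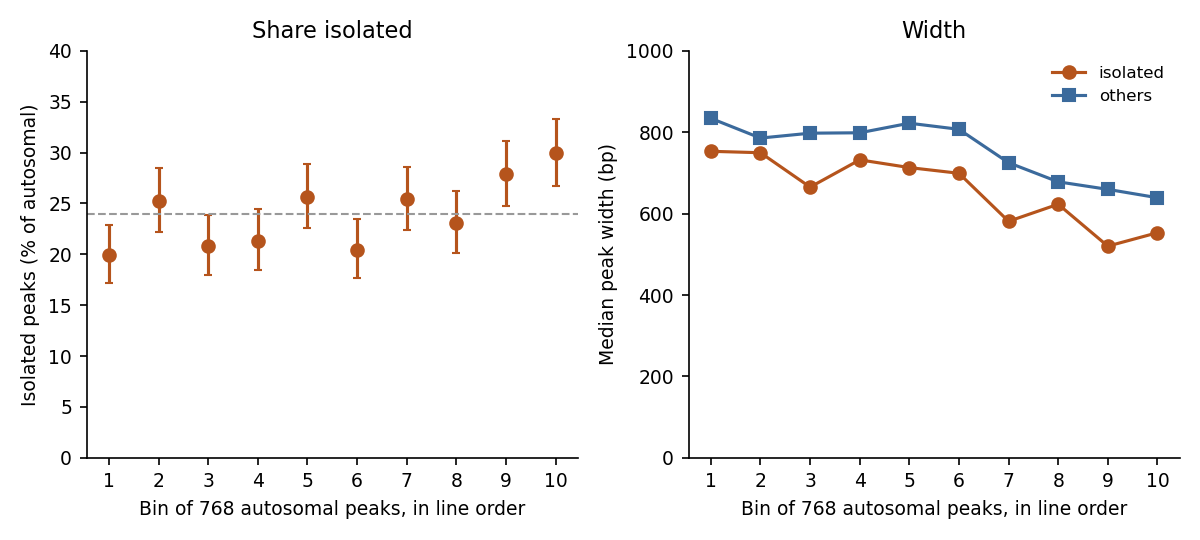
Left, isolated peaks as a percentage of autosomal peaks in each of 10 bins of the list, with exact 95% binomial intervals and a dashed line at 24.0%. Right, median width in bp of isolated peaks (circles) and other peaks (squares) by bin. The share is highest in the last bin, at 29.9%, and the isolated median is below the other in all 10.

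The slope of width with distance was present in each of 4 equal parts of the list. In the first of them the median width was 798 bp for the other peaks, 780 bp at 100 to 200 kb, 718 bp at 200 to 500 kb and 652 bp beyond 500 kb. In the last the same classes had medians of 645, 584, 548 and 486 bp. The 2 middle parts ran from 820 to 672 bp and from 748 to 560 bp, with every step downward.

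The list was cut wherever the order of chromosome name and start stepped backward, which gave 94 stretches. Each is sorted by this definition, and any list can be cut in this way, so the stretches are not a found structure. Isolated peaks were rare in the first. Of the 90 peaks of that stretch 7 were isolated (7.78%, 95% interval 3.18 to 15.4%), the lowest share among the 56 stretches with at least 30 autosomal peaks. The wide chromosome 17 peak was 1 of the 7. The others lay on chromosome 11 at 31069037 to 31070456 (1420 bp) and 105996304 to 105996964 (661 bp), chromosome 14 at 45949013 to 45950081 (1069 bp), chromosome 15 at 84260675 to 84261688 (1014 bp), chromosome 18 at 42281177 to 42281651 (475 bp) and chromosome 4 at 117795169 to 117796580 (1412 bp). These 6 were 131.6 to 258 kb from their nearest neighbours, far closer than the chromosome 17 peak. These 6 positions fall outside the naming rule and were chosen after their values were seen.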

How the data were processed

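The authors deposited 1 list of Gata6 peaks as positions (chromosome, start, end), with no score, on build mm9 per the submitters' processing notes, which also name CASAVA 1.8 and BWA 0.5.9-r16 without a role. The peak caller, its threshold and whether libraries were pooled are not stated in those sources. The name of the deposited list includes the letters FDR and the digit 1, which no source explains. The list was treated as 1 pooled result. A caller that joins or splits neighbouring regions changes both widths and distances. Printed starts are 1-based, taken from 0-based file positions, and distances run between midpoints. Sequencing depth is unknown. Bands and chromosome lengths of mm9 came from circlize 0.4.16 in R 4.3.3. Distances and widths were computed in Python 3.11.15 (pandas 2.3.3, numpy 2.4.6), intervals with scipy 1.17.1 and plots with matplotlib 3.10.9. The distance rule was tested on simulated peaks. None of them were spaced near the 100 kb limit, so the test does not cover peaks close to it.

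Named peaks were the 10 widest, the 5 most distant, the 3 narrowest, and 2 on either side of the limit. The members and summaries were chosen with earlier results of these data known. Genes, motifs and peak sequences were not analysed here, because the references at hand describe GRCm38.p6. Peaks are not replicates, so no p-values were computed.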

Additional observations from a re-analysis of the deposited data

Results flagged for a closer look

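Chromosome X lies outside the autosomal rule, yet 40 of its 53 peaks (75.5%, exact 95% binomial interval 61.7 to 86.2%) were more than 100 kb from any other, against 24.0% on the autosomes. This was singled out because it concerns peaks that the report does not use. The rule leaves more peaks isolated where peaks are sparse, so both shares are descriptions. Isolated X peaks had a median width of 625.5 bp (519 to 667 bp) and the 13 other X peaks one of 616 bp (378 to 763 bp). X holds few peaks, and the part of that low number in its share was not tested.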

How the results depend on the processing

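The number of isolated peaks follows the limit by construction, with 3058 at 50 kb, 973 at 200 kb and 324 at 500 kb, or 39.8, 12.7 and 4.22% of autosomal peaks. The share was 26.8% with peaks merged whose edges lie within 2 kb, 35.3% among the widest 3868 peaks and 40.8% in the first 3868 lines, where fewer peaks remain as neighbours. Isolation was defined anew within each of these sets, so their isolated peaks are not the reported ones alone. The isolated median width was 679, 610 and 575.5 bp at 50, 200 and 500 kb, 960 bp in the widest 3868 peaks and 754.5 bp in the first 3868 lines. The difference in medians stayed below 0 in all alternatives run over the autosomes together. It was -137 bp at 200 kb, -160.5 bp at 500 kb, -53 bp in the widest 3868 peaks and -67 bp in the first 3868 lines. Without the widest isolated peak it was -102.5 bp, and -21 bp on chromosome 17, where it had been 4 bp, a direction that leaving out the widest peak fixes. The share in the darkest bands was 28.1% at 200 kb, 36.4% at 500 kb and 21.5% in the widest 3868 peaks, against 19.6%, 20% and 16.5% of the other peaks under the same settings. In the first 3868 lines it was 22.0% against 21.2%, so the difference nearly closed under this changed membership. The cause was not tested. The share in the first 3868 lines was 43.2% at 500 kb and 58.3% in the widest 3868 peaks. The share of the other peaks was not computed there. Width fell with line number among isolated (rho = -0.24) and other peaks (rho = -0.18). The widest peaks of either kind thus tend to stand early, and 58.3% cannot be set against 47.1%. The first 1934 lines held 23.4% of isolated peaks against 25.5% of the others. Of 53 alternative values, 28 stayed within tolerances from 95% intervals (1.5 times for numbers of peaks) and 25 moved. Some moved by construction, as at other limits or in the first 1934 lines, so this is no measure of robustness. Measured between edges, the pair just inside the limit fell to 99.3 kb. Leaving out the widest peak, alone or with means, and dropping other peaks with a midpoint within 1 kb were chosen after the data were seen. Alternatives for genes, motifs and single libraries were not run, as no mm9 annotation, mm9 sequence or value per library was used. Unknown depth limits what isolation means, since weaker neighbours may be missing from the list. No paired analysis was possible because peaks carry no values for single libraries.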

Other observations

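A pair of stretches of the list held many very narrow peaks, isolated or not. Of the 54 autosomal peaks under 300 bp there, 27 were isolated. On all autosomes 93 of the 262 peaks of that size were isolated (35.5%). The stretches stood at lines 5148 to 5187 and 6687 to 6726, and their median widths of 283 and 269 bp were the lowest among the 56 stretches with at least 30 autosomal peaks. In these 2 stretches 31 of 79 autosomal peaks (39.2%) were isolated, against 23.8% among the remaining autosomal peaks. Across the 56 stretches, the isolated share was lower where the median width was larger (Spearman's rho = -0.73, stretches of 1 list, description only), and it ran from 7.78% in the first stretch, with a median width of 1064 bp, to 40% in the stretch at lines 5148 to 5187. These stretches were picked after their values were seen.

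Of the 38 peaks that are the first or last of an autosome, 23 were isolated, beside 1841 of all 7680 autosomal peaks (24.0%). For these 38 peaks only 1 side could be measured, so the rule is easier to meet and the count describes the rule.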
